A study of Mus musculus with 9 samples.

Results

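The genes described here are 10 genes with which cells make, take up, store and burn fatty acids, namely Fasn, Acaca, Scd1, Scd2, Lpl, Angptl4, Plin2, Pparg, Fabp4 and Cpt1a. They were followed in mouse bone marrow-derived macrophages (BMDMs), which differentiate from marrow cells under the growth factor M-CSF. The members are a list of names, and their probe sets are those that the platform annotation gives to 1 gene symbol only. All 10 were on the array, among 18193 genes, with 21 of the 34945 probe sets of 1 gene. A gene's level below is that of its brightest probe set, as the log2 signal after robust multiarray averaging (RMA), a scale on which 1 unit is a doubling. Gene positions are those of RefSeq on GRCm38.p6.

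The 9 arrays fell into 3 groups of 3, all of BMDMs from BALB/c mice aged 8 to 10 weeks. All cells were labelled as grown for 7 days with 20 µg/ml M-CSF and 10% serum, then kept overnight in 1% serum. The study's methods instead give 20 ng/ml M-CSF for the culture and 20 µg/ml for the overnight step. TNC + TLR4i cells received 3 µM TAK-242, a small molecule inhibitor of Toll-like receptor 4 (TLR4), for 1 h. Tenascin C (TNC), a matrix glycoprotein, was then added as recombinant protein at 2 µg/ml for 6 h. TNC + vehicle cells received 0.1% DMSO for 1 h in place of the inhibitor and then the same TNC. Untreated cells were labelled with no addition, and the labels do not say whether they had vehicle. No group was labelled as inhibitor alone, vehicle alone or an endotoxin control. In TNC + TLR4i against untreated cells, the inhibitor and TNC therefore cannot be told apart. In TNC + TLR4i against TNC + vehicle cells, a lost response to TNC and other effects of the inhibitor cannot be told apart either. In TNC + vehicle against untreated cells, TNC cannot be told apart from a difference in vehicle or from any endotoxin in the protein. Below, with TNC stands for that comparison. The labels name biological replicates without saying whether they were separate mice, so p-values measure the spread between these arrays.

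Fatty acids are built from acetyl units by acetyl-CoA carboxylase and fatty acid synthase, desaturated, esterified into triglyceride and kept in lipid droplets, and they are burned in mitochondria after entry through carnitine palmitoyltransferase. Genes of synthesis are classically driven by SREBP transcription factors and the liver X receptors. Genes of uptake, storage and oxidation are known targets of the peroxisome proliferator-activated receptors (PPARs), nuclear receptors that bind fatty acids, and a macrophage filled with droplets is called a foam cell.

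Arrays of TNC + vehicle and untreated cells correlated at 0.973 to 0.979 over probe sets, arrays of TNC + TLR4i and TNC + vehicle at 0.970 to 0.975, and arrays of TNC + TLR4i and untreated cells at 0.994 to 0.996, the range also seen within groups. All 9 macrophage markers measured lay above the median probe set in every array. So did 8 to 10 of 10 fibroblast and stromal markers, whose mean level was 9.14 to 9.37 in TNC + TLR4i, 9.25 to 9.51 in TNC + vehicle and 9.26 to 9.40 in untreated arrays. None of these 10 was called (limma; at unadjusted p under 0.05, 4 with TNC + TLR4i against TNC + vehicle, 6 with TNC + vehicle and 1 with TNC + TLR4i against untreated cells). Of the macrophage markers, 1, Fcgr1, was called higher in TNC + vehicle against untreated cells (0.94), and 2 were called lower in TNC + TLR4i against TNC + vehicle cells. Of 9 neutrophil markers, 5 to 7 lay above the median probe set, and 0 were called. Of 9 dendritic cell markers, 2 to 5 lay above it, with 1 called higher in the first of these comparisons and 1 lower in the second. Because Pparg, Plin2, Fabp4 and Lpl are also adipocyte genes, 8 adipocyte markers were measured as well. None was called in any of the 3 comparisons (limma; at unadjusted p under 0.05, 1, 1 and 0 of 8), and their mean level was 6.86 to 6.93 in TNC + TLR4i, 6.89 to 7.00 in TNC + vehicle and 6.92 to 6.95 in untreated arrays. In every array 3 of the 8, Adipor2, Slc2a4 and Retn, lay above the median probe set, and the other 5, among them Adipoq and Lep, lay below it. The mean level of 12 endothelial markers was 6.69 to 6.71 in TNC + TLR4i, 6.91 to 7.48 in TNC + vehicle and 6.75 to 6.78 in untreated arrays. In TNC + vehicle replicate 1, 11 of these 12 were higher than in the other TNC + vehicle arrays, by a median of 0.45. Of the 12, 1 was called with TNC + vehicle against untreated cells, Kdr (1.63), which was the 1 marker lower in replicate 1 than in the others, and the median of the 12 was 0.27. In TNC + TLR4i against TNC + vehicle cells 2 were called lower, Kdr (-1.96) and Cdh5 (-0.63), and the median of the 12 was -0.35. The 10 lipid genes differed in replicate 1 by a median of -0.03, with 5 of 10 higher, and the part of these markers in the results was not tested.

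Against untreated cells, Fasn and Scd2, genes of fatty acid synthesis and desaturation, rose in TNC + vehicle cells, while Angptl4, Plin2 and Pparg, genes of lipid storage and its control, fell. The other 5 genes were not called. In bulk RNA, fewer cells that express a gene and less RNA per cell cannot be told apart. A gene counted as called where limma gave an adjusted p under 0.05 and the change reached 1.5-fold. Of the 10 genes 2 were called higher and 3 lower, beside 3.74% and 4.05% of all 18193 genes, or 7.78% in either direction. In 8 of the 10 the groups did not overlap, against 42.3% of all genes, with 3 higher (19.7% of all genes) and 5 lower (22.6%). The same 8 had an adjusted p under the threshold at any fold, against 28.1% of all genes. The median change of the 10 genes was -0.14, beside 0.01 over all genes.

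With the inhibitor, that is in TNC + TLR4i against TNC + vehicle cells, Angptl4, Plin2, Pparg, Fabp4 and Cpt1a rose and Fasn fell. These 5 and 1 genes compare with 4.25% of all genes called higher and 4.05% lower, or 8.3% in either direction. The groups did not overlap in 8 of 10 genes, against 42.2% of all genes, with 5 higher (23.8%) and 3 lower (18.4%), and 8 had an adjusted p under the threshold at any fold (28.5% of all genes). The median change was 0.35, beside 0.00 over all genes. Both comparisons use the same TNC + vehicle arrays, so their opposite signs are not independent. Between TNC + TLR4i and untreated cells 1 of the 10 genes, Angptl4, was called higher, beside 0.0605% of all genes, and 0 were called lower, beside 0.198%, or 0.258% in either direction. At any fold, 2 of the 10, Angptl4 and Plin2, had an adjusted p under the threshold (limma), against 0.803% of all genes. The groups did not overlap in 4 of 10 genes (15.2% of all genes), 4 higher (8.61%) and 0 lower (6.56%). The median change was 0.21, beside 0.01 over all genes.

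**Figure D1:**
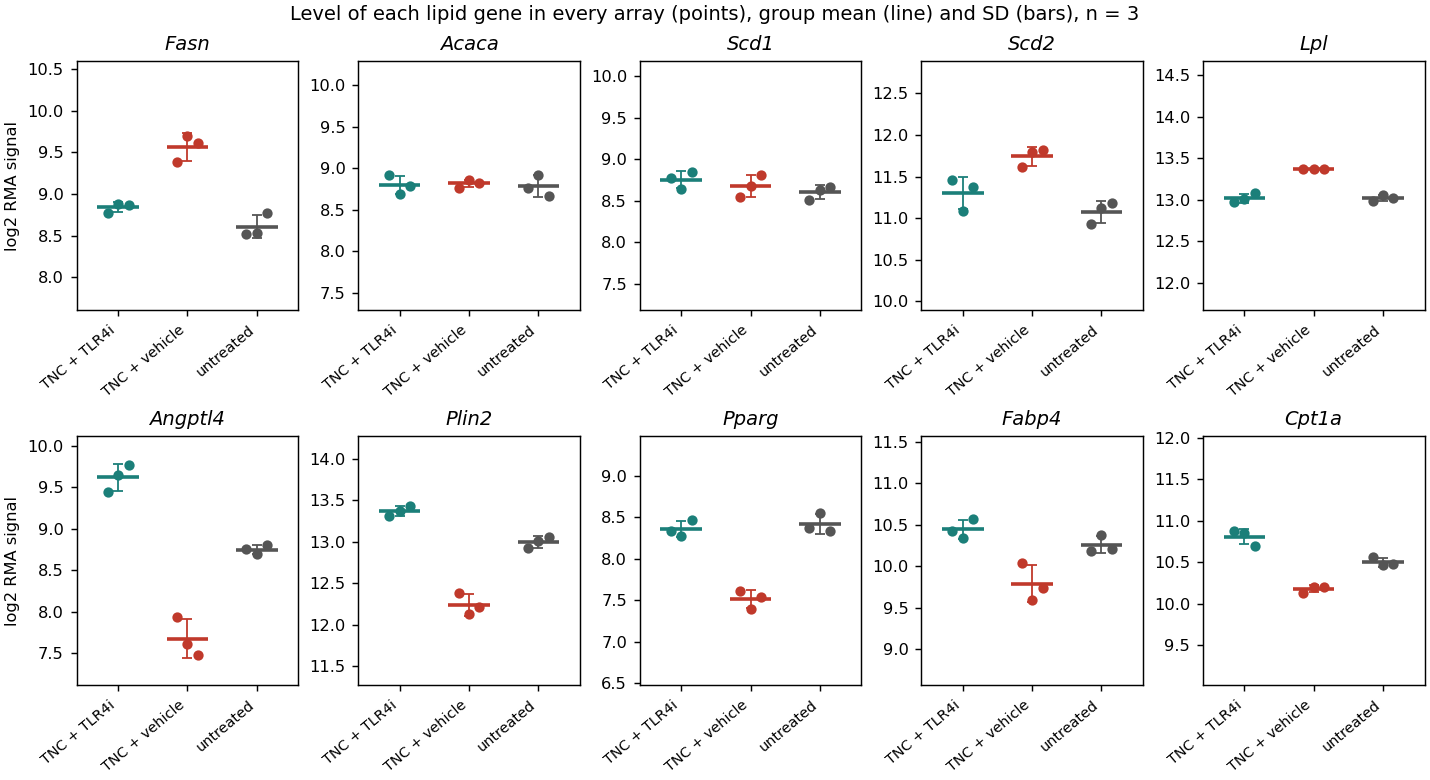
Log2 RMA signal (vertical axis) of each of the 10 genes in the 9 arrays, as points by group (TNC + TLR4i, TNC + vehicle, untreated), with the group mean as a line and the SD as bars (n = 3). Angptl4, Plin2 and Pparg lie lowest in the TNC + vehicle arrays, Fasn and Scd2 lie highest there, and Acaca and Scd1 overlap in all groups.

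Fasn (probe set 1423828_at, chr11:120805958-120825166), the synthase that assembles palmitate, measured 8.77, 8.88 and 8.87 in TNC + TLR4i, 9.38, 9.70 and 9.62 in TNC + vehicle and 8.52, 8.54 and 8.77 in untreated arrays. All TNC + vehicle arrays were above all 6 others, while TNC + TLR4i and untreated arrays met without overlapping, at 8.77. Fasn rose 1.94-fold in TNC + vehicle against untreated cells (log2 difference 0.96 ± 0.10 SE, limma adjusted p = 1.74e-05). It was lower in TNC + TLR4i than in TNC + vehicle cells, by a log2 difference of -0.73 ± 0.09 (adjusted p = 5.36e-05). Against untreated cells the TNC + TLR4i cells differed by 0.23 (95% interval 0.06 to 0.40), with an adjusted p of 0.391. Acaca (1434185_at, chr11:84129635-84401651) encodes the carboxylase that supplies malonyl-CoA to the synthase. It measured 8.91, 8.69 and 8.79 in TNC + TLR4i, 8.76, 8.86 and 8.83 in TNC + vehicle and 8.76, 8.92 and 8.67 in untreated arrays. The 3 groups overlapped, and none of the 3 comparisons passed the test. The difference of TNC + vehicle from untreated cells was 0.03, with a 95% interval of -0.14 to 0.20, an interval that lies below the whole of that of Fasn, 0.75 to 1.17.

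Scd1 and Scd2 encode stearoyl-CoA desaturases, which put the first double bond into saturated fatty acids, and they lie close together on chromosome 19 (chr19:44394450-44407709 and chr19:44293676-44306864). Scd2 (1415822_at) measured 11.45, 11.09 and 11.38 in TNC + TLR4i, 11.62, 11.79 and 11.82 in TNC + vehicle and 10.93, 11.12 and 11.18 in untreated arrays. Every TNC + vehicle array was above the other 6, and the TNC + TLR4i arrays reached into the untreated range. Scd2 rose 1.59-fold in TNC + vehicle against untreated cells (0.67 ± 0.09, limma adjusted p = 0.000118). With the inhibitor its difference was -0.44 ± 0.10 (adjusted p = 0.00601), a 1.35-fold difference that was under the minimum fold. Scd1 (1415964_at) measured 8.77, 8.64 and 8.85 in TNC + TLR4i, 8.55, 8.67 and 8.80 in TNC + vehicle and 8.50, 8.63 and 8.66 in untreated arrays. Its groups overlapped in all 3 comparisons, and its difference of TNC + vehicle from untreated cells was 0.07 (95% interval -0.10 to 0.25, adjusted p = 0.591). The interval of Scd1 ended below that of Scd2, which began at 0.48.

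The lipoprotein lipase pair consists of Lpl, which frees fatty acids from lipoprotein triglyceride outside the cell, and Angptl4, a secreted inhibitor of that lipase and a known PPAR target. Angptl4 (1417130_s_at, chr17:33774900-33781575) measured 9.44, 9.65 and 9.77 in TNC + TLR4i, 7.93, 7.62 and 7.48 in TNC + vehicle and 8.75, 8.69 and 8.80 in untreated arrays. None of the 3 groups overlapped another, with TNC + TLR4i highest and TNC + vehicle lowest. Angptl4 was 2.10-fold lower in TNC + vehicle than in untreated cells (-1.07 ± 0.10, limma adjusted p = 1.16e-05). It was 3.85-fold higher in TNC + TLR4i than in TNC + vehicle cells (1.95 ± 0.11, adjusted p = 1.21e-07), which placed it 8th among the 774 genes called higher there. TNC + TLR4i cells also exceeded untreated cells, by 1.83-fold (0.87 ± 0.08, 95% interval 0.69 to 1.05, adjusted p = 0.000747), and Angptl4 was the 5th largest of the 11 genes called higher in that comparison.

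Lpl (1415904_at, chr8:68880555-68906932) measured 12.97, 13.01 and 13.08 in TNC + TLR4i, 13.37 in each of the 3 TNC + vehicle arrays and 12.99, 13.06 and 13.02 in untreated arrays. The TNC + vehicle arrays were above all others, and the other groups overlapped. The difference of TNC + vehicle from untreated cells, 0.35 ± 0.06, had a limma adjusted p of 0.00148 but was only 1.27-fold, so Lpl was not called. TNC + TLR4i differed from TNC + vehicle cells by -0.35 ± 0.07 (adjusted p = 0.00167, 1.28-fold) and from untreated cells by an interval of -0.14 to 0.13. The lipase gene and the gene of its inhibitor were thus on opposite sides of untreated cells in every TNC + vehicle array.

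Plin2 (1448318_at, chr4:86626910-86670217) encodes perilipin 2, the coat protein of lipid droplets in macrophages. It measured 13.31, 13.37 and 13.43 in TNC + TLR4i, 12.38, 12.13 and 12.21 in TNC + vehicle and 12.93, 13.01 and 13.06 in untreated arrays. As for Angptl4, the 3 groups did not overlap, and TNC + vehicle was lowest and TNC + TLR4i highest. Plin2 was 1.69-fold lower in TNC + vehicle than in untreated cells (-0.76 ± 0.08, limma adjusted p = 2.46e-05) and 2.19-fold higher in TNC + TLR4i than in TNC + vehicle cells (1.13 ± 0.08, adjusted p = 5.57e-07). The difference between TNC + TLR4i and untreated cells, 0.37 ± 0.07, had an adjusted p of 0.0239 and was 1.30-fold, below the minimum fold.

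Fabp4 (1417023_a_at, chr3:10204342-10208616), a carrier of fatty acids in the cytoplasm of macrophages and adipocytes, measured 10.43, 10.34 and 10.57 in TNC + TLR4i, 10.04, 9.59 and 9.74 in TNC + vehicle and 10.19, 10.38 and 10.21 in untreated arrays. The TNC + vehicle arrays were lowest, with replicate 1 nearest to the other groups, and TNC + TLR4i overlapped untreated arrays. Fabp4 is also known from capillary endothelium, and replicate 1 is the array with the higher endothelial markers, but a link between them was not tested. Another Fabp4 probe set, 1451263_a_at, measured 8.31, 8.26 and 8.04 in the TNC + vehicle arrays. TNC + vehicle cells differed from untreated cells by -0.47 ± 0.11 (limma adjusted p = 0.00678, 1.38-fold, not called), and by -0.59 without TNC + vehicle replicate 1, where the gene was called. With the inhibitor Fabp4 rose 1.57-fold (0.65 ± 0.11, adjusted p = 0.000639), a call that was lost without TNC + vehicle replicate 2, at 0.55.

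Pparg (1420715_a_at, chr6:115360879-115490404) encodes PPARγ, the nuclear receptor of fat storage. It measured 8.34, 8.28 and 8.47 in TNC + TLR4i, 7.61, 7.39 and 7.54 in TNC + vehicle and 8.37, 8.56 and 8.34 in untreated arrays. All TNC + vehicle arrays were below all 6 others, which overlapped. Pparg fell 1.88-fold in TNC + vehicle against untreated cells (-0.91 ± 0.08, limma adjusted p = 7.65e-06) and rose 1.80-fold in TNC + TLR4i against TNC + vehicle cells (0.85 ± 0.08, adjusted p = 7.07e-06). Unlike for Angptl4 and Plin2, the interval of TNC + TLR4i minus untreated cells held 0, at -0.23 to 0.11. Cpt1a (1460409_at, chr19:3322326-3385735), the gate for long-chain fatty acids into mitochondria, measured 10.88, 10.85 and 10.70 in TNC + TLR4i, 10.13, 10.21 and 10.20 in TNC + vehicle and 10.56, 10.46 and 10.47 in untreated arrays. Its 3 groups did not overlap, in the same order as those of Angptl4 and Plin2. It rose 1.54-fold in TNC + TLR4i against TNC + vehicle cells (0.63 ± 0.07, adjusted p = 3.82e-05). Its differences of TNC + vehicle from untreated cells, -0.32 ± 0.07 (adjusted p = 0.00374, 1.25-fold), and of TNC + TLR4i from untreated cells, 0.31 ± 0.07 (adjusted p = 0.0857), were not called. Under cyclic loess scaling the calls of Cpt1a and Fabp4 with the inhibitor were lost, at 0.53 and 0.56.

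**Figure D2:**
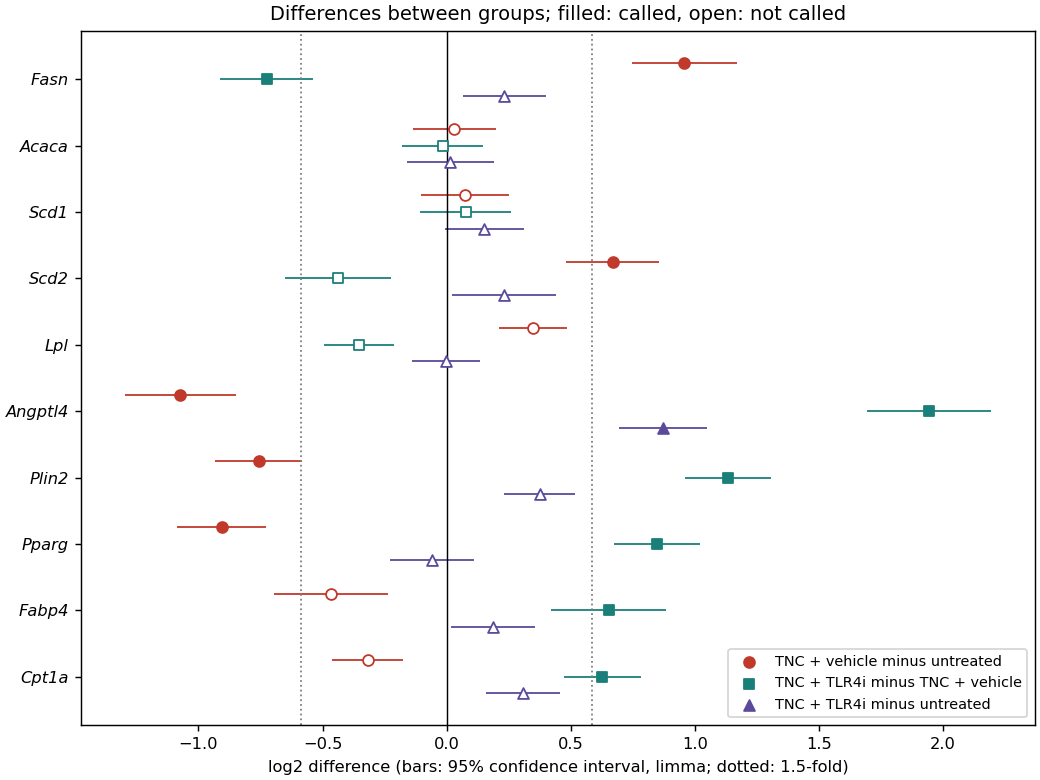
Log2 difference (horizontal axis) of each gene in the 3 comparisons, with the 95% interval from limma as bars, filled symbols for called differences and dotted lines at 1.5-fold. Angptl4 has the largest difference in TNC + TLR4i against TNC + vehicle, at 1.95, and is the only filled symbol in TNC + TLR4i against untreated.

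The RefSeq promoter table (GRCm38.p6) held 5 of the 10 genes, with 7 start sites. The 250 bases before a start site of that table are shown for Plin2, Cpt1a and the first of the table's starts of Pparg, which were all lowest in TNC + vehicle arrays, and for Fasn, which was highest there. Capitals mark AGGTCA, the half-site of nuclear receptors, and the CCAAT box, on either strand (TGACCT and ATTGG where the match is on the other strand). The stretches lie at chr4:86670060-86670309 (minus strand), chr19:3323051-3323300 (plus), chr6:115360894-115361143 (plus) and chr11:120824548-120824797 (minus), and are written 5′ to 3′. These starts are not the outermost of the genes: they lie 158, 265 and 619 bases inside the gene spans given above for Plin2, Pparg and Fasn, and further inside that of Cpt1a. The stretches of Pparg, Fasn and Cpt1a lie wholly within those spans.
Plin2: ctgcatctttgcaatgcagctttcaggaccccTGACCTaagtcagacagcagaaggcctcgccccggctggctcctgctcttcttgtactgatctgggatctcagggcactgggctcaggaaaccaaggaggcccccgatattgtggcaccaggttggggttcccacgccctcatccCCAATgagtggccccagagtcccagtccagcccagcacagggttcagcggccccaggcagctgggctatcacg
Cpt1a: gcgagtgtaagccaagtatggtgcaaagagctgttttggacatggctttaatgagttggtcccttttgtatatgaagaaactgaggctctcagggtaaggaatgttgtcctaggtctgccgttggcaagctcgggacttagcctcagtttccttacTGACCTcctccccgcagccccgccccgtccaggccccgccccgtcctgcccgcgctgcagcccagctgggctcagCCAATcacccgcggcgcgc
Pparg: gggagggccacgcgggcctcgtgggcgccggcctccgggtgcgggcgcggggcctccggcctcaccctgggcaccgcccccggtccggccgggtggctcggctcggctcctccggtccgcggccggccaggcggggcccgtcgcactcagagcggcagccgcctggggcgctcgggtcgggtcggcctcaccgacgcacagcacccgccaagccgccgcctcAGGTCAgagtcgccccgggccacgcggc
Fasn: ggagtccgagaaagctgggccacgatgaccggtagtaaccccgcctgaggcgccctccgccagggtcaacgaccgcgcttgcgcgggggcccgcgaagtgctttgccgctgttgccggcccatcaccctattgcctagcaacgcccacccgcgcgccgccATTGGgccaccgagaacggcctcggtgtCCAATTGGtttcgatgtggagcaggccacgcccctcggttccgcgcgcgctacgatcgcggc
AGGTCA began 218 bases before the Plin2 start, 94 bases before that of Cpt1a and 28 bases before that of Pparg. It also began 9 bases before another Pparg start, and so was in 4 of the 7 promoters, beside 14% of all 32851 promoters in the table. The 7 promoters belong to 5 genes, with several starts of Pparg, so the counts here and below are not counts of separate genes. CCAAT was in 5 of the 7, beside 33.8% of all promoters. Fasn held 3 matches to CCAAT, beginning 90, 62 and 59 bases before its start, of which the last 2 overlap as CCAATTGG, and none to AGGTCA. The pair of AGGTCA half-sites in the same direction with 1 base between them, the DR1 element to which PPARs bind, was in 0 of the 7, beside 0.0335% of all promoters. These matches describe the letters only, and no binding was measured.

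Over the 9 arrays, Angptl4, Plin2, Pparg, Fabp4 and Cpt1a correlated with each other at 0.775 to 0.985 (Pearson), and Fasn, Scd2 and Lpl at 0.855 to 0.930. Between these sets r ran from -0.962 to -0.596, and Acaca or Scd1 correlated with any other gene at -0.179 to 0.455. These are descriptions, since the 9 arrays share the 3 groups. Among 986 or 987 genes that ranged over at least 1 log2 unit, those with the pattern closest to Fasn were Sc5d, an enzyme of the last steps of cholesterol synthesis (r = 0.982), and Mki67, a proliferation gene (0.978). Closest to Scd2 were Nsdhl (0.957) and Fdps (0.943), both enzymes of sterol synthesis. Angptl4 was closest to Plin2 (0.985) and the uncharacterised transcript AU020206 (0.984), and Plin2 to the chemokine receptor gene Cxcr4 (0.993) and AU020206 (0.986). Pparg was closest to Acot2, a mitochondrial acyl-CoA thioesterase (0.992), and Rnase4, a secreted ribonuclease (0.992). The SD within groups was between 0.04 for Lpl and 0.17 for Angptl4, with a median over the 10 genes of 0.108 beside 0.0897 over all genes.

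Several probe sets measured 7 of the 10 genes, and levels of different probe sets cannot be set against each other. Both other Scd2 probe sets were called in TNC + vehicle against untreated cells, at 0.82 (1415823_at) and 0.70 (1415824_at). The second Scd1 probe set, 1415965_at, gave 0.21 (limma adjusted p = 0.0558) in that comparison and -0.20 (0.0631) in TNC + TLR4i against TNC + vehicle cells. Neither was called, but unlike for the first probe set the groups did not overlap in either. The second Lpl probe set, 1431056_a_at, which matches several transcripts, gave 0.22 (0.0605) and -0.21 (0.08), in the same directions as the first. For Fabp4, 1451263_a_at gave -0.51 and, called, 0.75 in these comparisons, and 1424155_at and 1425809_at, with means of 6.43 and 6.97, gave -0.06 and 0.12, and -0.02 and 0.05. For Cpt1a, 1434866_x_at gave -0.40 and, called, 0.59, and 1438156_x_at gave -0.27 and 0.38, where the suffix x marks probes shared with other transcripts. The second Angptl4 probe set, 1453410_at, with a mean of 5.76 near the floor of the values at 5.44, gave 0.02 and 0.04 where the first gave -1.07 and 1.95. The first, 1417130_s_at, has the suffix s, which marks probes that match several transcripts. The changes of Angptl4 rest on that probe set alone. When a gene was measured by the mean of its probe sets, the changes of Angptl4 were -0.52 in TNC + vehicle and 0.47 in TNC + TLR4i, both against untreated cells, and neither was called.

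**Figure D3:**
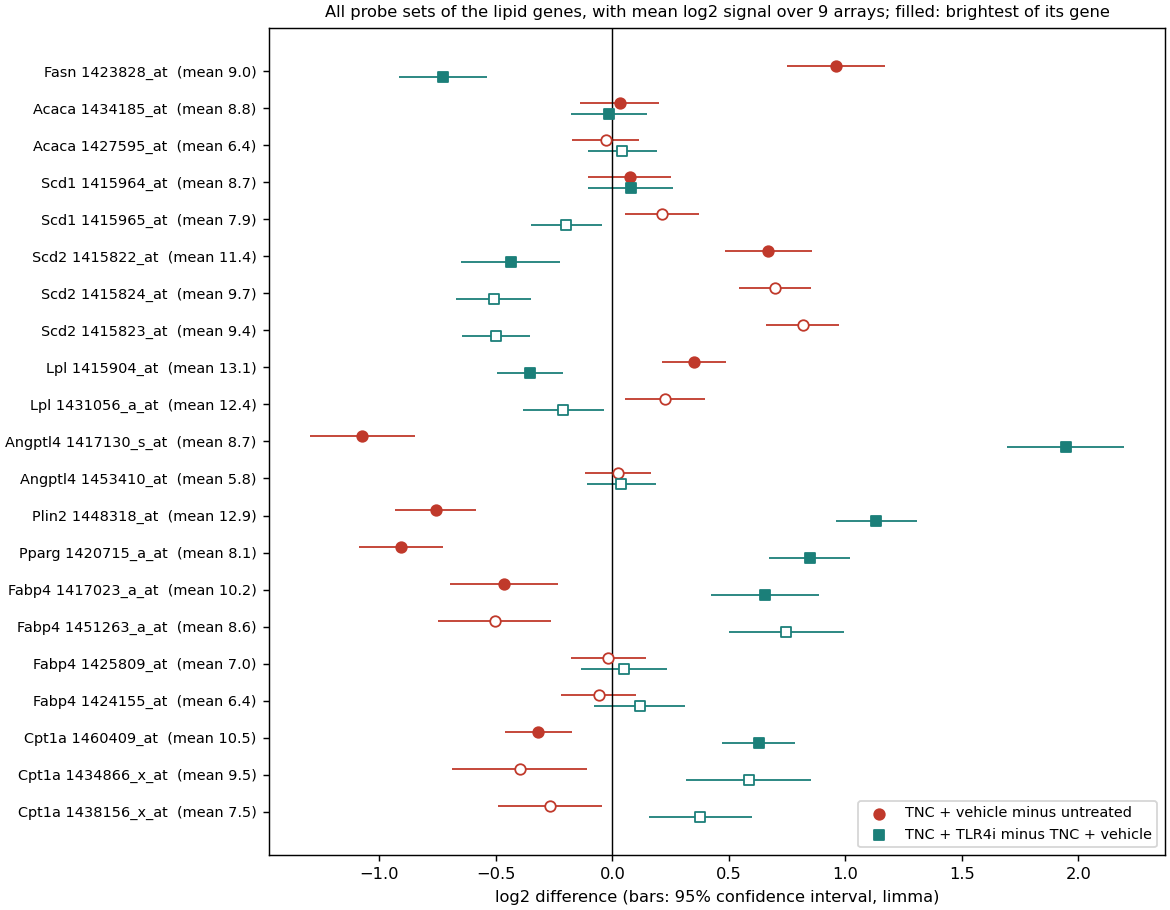
Log2 difference (horizontal axis, 95% limma interval as bars) of all 21 probe sets of the 10 genes in TNC + TLR4i against TNC + vehicle and in TNC + vehicle against untreated cells, each row with its mean log2 signal over 9 arrays and the brightest probe set of a gene filled. The 3 probe sets of Scd2 give 0.67 to 0.82 in TNC + vehicle against untreated, and the second of Angptl4, at a mean of 5.76, lies at 0.02.

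The genes around the 10 in their pathways were followed in 6 lists, with 85 of 94 genes measured. With TNC, in TNC + vehicle against untreated cells, 8 rose and 8 fell, and with the inhibitor 11 rose and 6 fell (limma). In TNC + TLR4i against untreated cells 0 were called. There the groups did not overlap in 18 genes that were higher (8.61% of all genes) and 4 that were lower (6.56%). Over all genes the shares called higher and lower were 3.74% and 4.05% with TNC and 4.25% and 4.05% with the inhibitor, and 0.258% were called in either direction in TNC + TLR4i against untreated cells. In the synthesis, desaturation and elongation list, 3 of 20 genes rose with TNC and 0 fell, with a median of 0.19. They were Fads2, the first desaturase of polyunsaturated fatty acids (0.76), Acss2, which makes acetyl-CoA from acetate (0.64), and Hsd17b12, an elongation enzyme (0.59, a call lost without TNC + vehicle replicate 3, at 0.55, or untreated replicate 1, at 0.56). Acss2 fell in TNC + TLR4i against TNC + vehicle cells (-0.71), and Fads1 rose (0.67). When probe sets of a gene were averaged, the calls of Acss2 (0.49 with TNC and -0.48 with the inhibitor), Hsd17b12 (0.57) and Fads1 (0.41) were lost, and that of Fads1 was also lost under cyclic loess (0.58). Srebf1, the gene of the transcription factor SREBP1, differed by 0.40 ± 0.07 with TNC (adjusted p = 0.00147, 1.32-fold, not called). In the uptake and activation list, Fabp3, a fatty acid carrier of muscle and heart, rose with TNC (1.45, and 1.22 without TNC + vehicle replicate 1), as did the acyl-CoA synthetases Acsl5 (0.87) and Acsl4 (0.59, a call lost without TNC + vehicle replicate 1 or 2 or untreated replicate 3, at 0.58, 0.57 and 0.56). Slc27a1, a fatty acid transporter, fell (-0.68). All 4 were called in the other direction in TNC + TLR4i against TNC + vehicle cells, at -1.47, -0.90, -0.70 and 0.86.

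Of the fatty acid oxidation list around Cpt1a, 3 of 18 genes fell with TNC, 0 rose and the median was -0.25, with all TNC + vehicle arrays below all untreated arrays in 13 of 18 genes (22.6% of all genes). With the inhibitor 4 rose, 0 fell and the median was 0.31, with the arrays apart and higher in 14 of 18 (23.8% of all genes). Hadh, which carries out the third step of β-oxidation, fell with TNC (-1.09) and rose with the inhibitor (1.17), as did the thiolase gene Acaa2 (-0.64 and 0.73). Pdk4, a kinase that holds pyruvate out of the mitochondrial cycle and a known PPAR target, gave -0.61 and 1.11, and its first call was lost without TNC + vehicle replicate 1 (-0.55) or untreated replicate 3 (-0.46). The medium-chain dehydrogenase gene Acadm was called with the inhibitor (0.62, lost under cyclic loess at 0.52) and not with TNC (-0.52).

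In the triglyceride and droplet list 2 of 16 genes fell with TNC. Plin3, a perilipin of small droplets, fell by 0.77 and was 0.91 higher in TNC + TLR4i than in TNC + vehicle cells, the same directions as Plin2. Bscl2, the gene of the droplet protein seipin, fell by 0.59, a call lost without TNC + vehicle replicate 2 (-0.54), untreated replicate 1 (-0.56) or untreated replicate 3 (-0.57), under cyclic loess (-0.50) or over the mean of its probe sets (-0.48). In the lipolysis list, Daglb, a diacylglycerol lipase, fell by 1.20 with TNC and was 1.09 higher with the inhibitor. Lipa, the lysosomal acid lipase, was 0.92 higher in TNC + TLR4i than in TNC + vehicle cells. Its change of -0.49 in TNC + vehicle against untreated cells was not called, and was called without TNC + vehicle replicate 1, at -0.62.

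Among lipid-sensing nuclear receptors and their partners, 2 of 9 rose and 1 fell with TNC. Nr1h3, the gene of liver X receptor alpha, rose (1.04) and was lower in TNC + TLR4i than in TNC + vehicle cells (-1.01), in the direction of Fasn and opposite to Pparg. The coactivator gene Ppargc1b behaved the same way (0.69 and -0.91). Rxra, the gene of the partner receptor of PPARs, fell with TNC (-0.59, a call lost without TNC + vehicle replicate 2 or untreated replicate 1, at -0.57 and -0.53, and under cyclic loess, at -0.57) and rose with the inhibitor (0.67). Over the mean of its 3 probe sets Rxra gave -0.08 and 0.17, neither called. The order of Angptl4, Plin2 and Cpt1a, with TNC + vehicle lowest, TNC + TLR4i highest and no overlap, was found in 10 of the 85 wider genes (Acadm, Acads, Acadvl, Cd36, Fads1, Lipa, Lmf1, Pdk4, Pnpla2 and Slc27a1) and in 2.47% of all genes. Of these, Cd36, a scavenger receptor for fatty acids and oxidized lipoprotein, measured 12.06, 12.06 and 12.14 in TNC + TLR4i, 11.08, 11.42 and 11.49 in TNC + vehicle and 11.53, 11.58 and 11.57 in untreated arrays. Cd36 was called in TNC + TLR4i against TNC + vehicle cells (0.76), and it differed from untreated cells by 0.53 in TNC + TLR4i (limma adjusted p = 0.0028, 1.44-fold, under the minimum fold) and by -0.23 in TNC + vehicle cells (adjusted p = 0.123), or -0.10 without TNC + vehicle replicate 1. Its probe set 1450884_at gave 0.60 and -0.04 in these 2 comparisons, the first called (adjusted p = 0.00136) and the second with overlap of the groups.

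**Figure D4:**
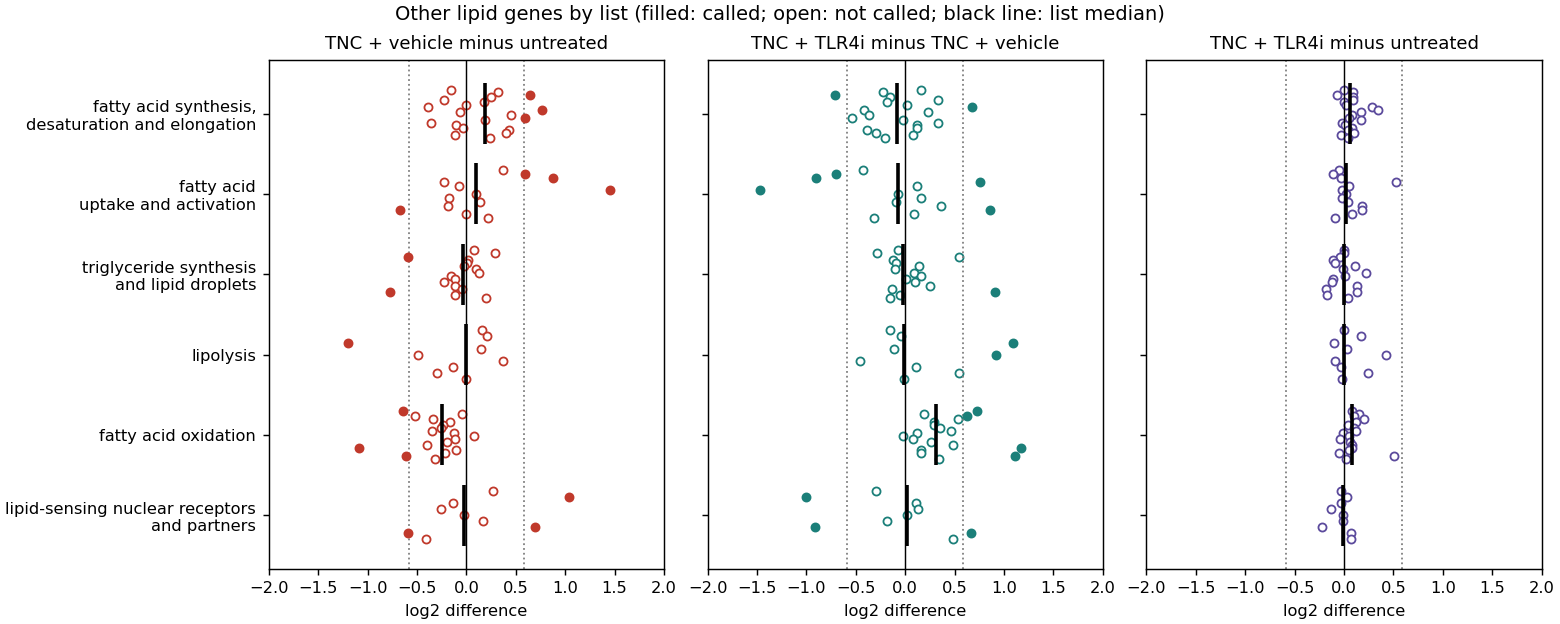
Log2 difference (horizontal axis) of the 85 measured genes of 6 lipid lists (rows) in the 3 comparisons (panels), filled where called, with the list median as a black line and dotted lines at 1.5-fold. The fatty acid oxidation list has its median at -0.25 in TNC + vehicle against untreated, at 0.31 in TNC + TLR4i against TNC + vehicle and at 0.08 in TNC + TLR4i against untreated.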

How the data were processed

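Total RNA (100 ng per sample) was hybridised to Affymetrix mouse 3′ expression arrays. The authors ran RMA in Chipster 3.8.0, per the labels and the study's methods, and the deposited values are on a log2 scale. RMA includes quantile normalization, which would hide a change of total RNA, and it leaves a floor that understates changes of dim genes. No detection call was used. Of 45101 rows, 64 array controls were left out. The platform annotation gave 34945 probe sets 1 gene, 932 several and 9160 none, and only the first were named. For each gene the probe set brightest on average over the 9 arrays was used.

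Each comparison was a two-sided fit in limma 3.58.1 (R 4.3.3) on its 6 arrays, with p-values adjusted by Benjamini-Hochberg over 45037 probe sets. The number of arrays limits the precision. The fit was tested on simulated data. The members, lists and tests were chosen with earlier results of these data known. Named from each wider list were up to 4 called genes per comparison, the largest changes without overlap of the groups. For each member called in TNC + vehicle against untreated cells, the 2 most correlated genes were named, and other genes were chosen after their values were seen. Alternatives were a fit over all 9 arrays, blocking on the replicate number, leaving out dim probe sets, centring medians, cyclic loess, trended robust eBayes, weighting arrays, averaging a gene's probe sets, other thresholds and leaving out each array in turn. Of the 94 genes of the wider lists, 85 were analysed, and the others are not reported here.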

Additional observations from a re-analysis of the deposited data

How the results depend on the processing

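Of 483 values of single genes, 444 kept their direction and side of the threshold. These values came from the refits and from the other probe sets of the genes. The alternatives that changed only the threshold of adjusted p or fold were not among them. The fold threshold moved the counts most. Called members in TNC + vehicle against untreated cells, 5, were 8 with no minimum fold, 1 at 2-fold and 3 when tested against 1.5-fold (treat). In TNC + TLR4i against TNC + vehicle cells, 6, they were 2 at 2-fold and 2 by treat. In TNC + TLR4i against untreated cells, 1, they were 2 with no minimum fold, 0 at 2-fold, 0 by treat and 0 over the mean of probe sets. Leaving out 1 array gave 5 to 6, 5 to 6 and 1 to 1. For the wider lipid genes, 16 with TNC became 37, 4 and 4 (no minimum fold, 2-fold, treat), 17 with the inhibitor became 42, 5 and 8, and 0 against untreated cells became 2 with no minimum fold. Leaving out 1 array gave 13 to 16, 17 to 17 and 0 to 1, the last being Pdk4 without untreated replicate 3 (0.65). Under cyclic loess the calls of Fabp4 (0.56) and Cpt1a (0.53) in TNC + TLR4i against TNC + vehicle cells were lost, as over the mean of probe sets (0.39 and 0.53), and the cause was not tested. Both settings also ended calls of some wider genes, as given beside them.

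Signs turned only where the main difference was near 0 and not called, apart from Angptl4 with TNC (0.024 for its dim second probe set). Acaca gave -0.028 with TNC and 0.043 with the inhibitor for its second probe set, 0.013 with the inhibitor over the mean of probe sets and -0.0011 against untreated cells under cyclic loess. Leaving out 1 array put it at -0.027 to 0.10 with TNC, -0.073 to 0.037 with the inhibitor and -0.043 to 0.084 in TNC + TLR4i against untreated cells. Scd1 with the inhibitor gave -0.20 for its second probe set, where the groups did not overlap, and -0.060 over the mean. In TNC + TLR4i against untreated cells Lpl gave 0.014 for its second probe set, 0.0032 with array weights, 0.0053 over the mean and -0.033 to 0.021 without 1 array, and Pparg -0.11 to 0.0092 without 1 array.

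With the replicate number as a block, 5, 6 and 1 members and 16, 17 and 0 wider genes were called, as without it. Same-numbered arrays did not deviate together (r from -0.0979 to 0.215 over 9 pairs), so the numbers were not taken as a pairing. Dim signals near the RMA floor limit the second probe sets of Angptl4 and Acaca.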

Other observations

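The desaturase genes Fads1 and Fads2, which lie close together on chromosome 19 (chr19:10182877-10196874 and chr19:10062765-10101503) and act in the same pathway to polyunsaturated fatty acids, differed in direction with TNC. Fads2 measured 8.16, 8.35 and 8.41 in TNC + TLR4i, 8.69, 8.69 and 8.79 in TNC + vehicle and 7.95, 7.97 and 7.98 in untreated arrays, and no group overlapped another. Fads1 measured 10.65, 10.38 and 10.57 in TNC + TLR4i, 9.88, 9.86 and 9.84 in TNC + vehicle and 10.17, 10.29 and 10.28 in untreated arrays, with the TNC + vehicle arrays lowest. Against untreated cells, TNC + vehicle cells had a 95% interval of 0.62 to 0.90 for Fads2 and of -0.54 to -0.24 for Fads1, where Fads1 was under the minimum fold (limma adjusted p = 0.00107). TNC + TLR4i differed from untreated cells by 0.34 for Fads2 and 0.28 for Fads1, neither called. Fads2 had 2 more probe sets, at 0.69 and 0.37 with TNC, and Fads1 had 1 more, at -0.12.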
